A study of Mus musculus with 24 samples.

Results

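The genes described here are 37 interferon-stimulated genes, read in 24 RNA-seq libraries of eosinophils that were grown from mouse bone marrow. They were listed by name and matched to the Ensembl identifiers of the deposited count files, and all 37 were among the 25746 identifiers. Of these, 27 passed the filter on low counts and were tested, and the other 10 were too low to test. The study set out to examine how eosinophils of 3 genotypes respond to the cytokines granulocyte-macrophage colony-stimulating factor (GM-CSF) and interleukin-10 (IL-10). The groups were cells labelled Irf5-/- with GM-CSF or untreated, Csf2ra-/- cells with GM-CSF or untreated, and wild-type cells with GM-CSF plus IL-10, GM-CSF, IL-10 or no treatment, at 3 libraries each. Irf5 encodes a transcription factor that acts after Toll-like receptors, and Csf2ra the receptor chain that binds GM-CSF. All cells came from C57BL/6 mice. Stem cell factor and FLT3 ligand (100 ng/ml each) were given from day 0 to day 4 and interleukin-5 (10 ng/ml) from then on. Dead cells were removed on day 13, and stimulation with GM-CSF (20 ng/ml) ran overnight in medium that still held interleukin-5. No source used here gives the dose of IL-10 or the design of the alleles. The labels speak of cell triplicates and do not say whether these came from separate animals or cultures, so p-values measure only the spread between these libraries, which may be technical where libraries share a source. The summed Y-linked level was 12.1 to 178 CPM in the libraries labelled Irf5-/-, 148 to 185 CPM in Csf2ra-/- cells and 47.0 to 182 CPM in wild type, so in the groups labelled Irf5-/- and in wild type the libraries were not all repeats of the same cells.

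Interferons are secreted proteins, and those of type I and type III are released by cells that sense viral nucleic acid. Type I and type III interferons act through receptors, JAK kinases and a complex with STAT2 and IRF9 that binds the interferon-stimulated response element (ISRE) in promoters, while type II interferon acts at the gamma-activated sequence (GAS). The genes switched on encode sensors of viral RNA and DNA, enzymes that destroy RNA or nucleotides, proteins that block viral entry or release, and feedback inhibitors. Many are also transcribed at a low basal rate without added interferon. Eosinophils are granulocytes known for type 2 immunity and helminth defence.

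Total counts ranged from 6222979 to 18709153 per library, and 12910 to 15196 genes had a count. Levels below are CPM, counts scaled to a common library size with TMM factors, and levels of different genes are compared only as CPM per kilobase of exon. The labelled cell type was borne out by its defining genes: over the 24 libraries Prg2 averaged 44702 CPM and Epx 15999 CPM (both granule proteins), the surface lectin Siglecf 355 CPM and the eotaxin receptor Ccr3 276 CPM. Irf5 went against its label: its level was 1394 to 1999 CPM in those 6 libraries, against 28.3 to 94.3 CPM in the other 18. Each direction drawn from those libraries therefore rests on a label that the count of the targeted gene does not bear out. Csf2ra stood at 28.5 to 39.8 CPM in the 6 Csf2ra-/- libraries and at 41.8 to 83.8 CPM in the others. Among the Csf2ra-/- libraries untreated replicate 1 stood apart, with 8637672 counts and the highest summed level of 10 eosinophil markers of all libraries (110617 CPM).

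The promoters of the members were read from RefSeq (GRCm38.p6), which held 28 of the 37 in 33 windows (4 members have more than 1), each from 250 bases before the transcription start to 50 after it. Here 6 are shown, from the start of that window to the first 30 transcribed bases, because they hold the ISRE core in different numbers and places while their transcripts stood at very different levels. Ifit1 and Ifit3 encode proteins that bind foreign RNA and were below the filter. Isg15 encodes a ubiquitin-like modifier, Ifitm3 a membrane protein that blocks viral fusion, Ddx58 the RNA sensor RIG-I and Samhd1 a hydrolase of deoxynucleotides. Each runs 5′ to 3′ on the gene's strand, and capitals mark matches to the ISRE core, spelled GAAA, any 2 bases, GAAA, on either strand.
Ifit1 (chr19:34640639-34640918, plus strand): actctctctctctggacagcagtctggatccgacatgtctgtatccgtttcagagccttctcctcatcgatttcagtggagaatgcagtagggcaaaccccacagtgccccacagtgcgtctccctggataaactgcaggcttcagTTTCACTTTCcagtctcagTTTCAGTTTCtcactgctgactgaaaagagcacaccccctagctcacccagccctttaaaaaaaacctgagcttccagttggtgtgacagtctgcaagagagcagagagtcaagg
Ifit3 (chr19:34583279-34583558, plus strand): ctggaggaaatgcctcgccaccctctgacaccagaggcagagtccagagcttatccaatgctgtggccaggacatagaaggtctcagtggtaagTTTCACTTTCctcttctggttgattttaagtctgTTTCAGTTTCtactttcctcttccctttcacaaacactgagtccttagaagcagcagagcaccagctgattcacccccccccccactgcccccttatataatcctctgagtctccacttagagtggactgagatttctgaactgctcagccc
Isg15 (chr4:156200789-156201068, minus strand): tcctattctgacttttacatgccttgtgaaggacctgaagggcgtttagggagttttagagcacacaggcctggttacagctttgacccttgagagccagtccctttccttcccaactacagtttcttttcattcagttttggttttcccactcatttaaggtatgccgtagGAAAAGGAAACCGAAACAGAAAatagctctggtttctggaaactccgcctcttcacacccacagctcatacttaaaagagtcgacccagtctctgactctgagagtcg
Ifitm3 (chr7:141010715-141010994, minus strand): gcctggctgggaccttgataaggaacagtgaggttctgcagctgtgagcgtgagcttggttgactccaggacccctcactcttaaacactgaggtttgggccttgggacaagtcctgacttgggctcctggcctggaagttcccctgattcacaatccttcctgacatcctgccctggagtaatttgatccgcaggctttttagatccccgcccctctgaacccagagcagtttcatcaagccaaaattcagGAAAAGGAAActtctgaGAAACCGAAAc
Ddx58 (chr4:40239796-40240075, minus strand): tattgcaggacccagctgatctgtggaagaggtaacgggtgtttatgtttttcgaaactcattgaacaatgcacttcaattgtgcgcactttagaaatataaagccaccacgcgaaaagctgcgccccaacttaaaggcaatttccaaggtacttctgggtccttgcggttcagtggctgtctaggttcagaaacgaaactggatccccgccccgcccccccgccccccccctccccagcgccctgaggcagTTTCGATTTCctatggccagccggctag
Samhd1 (chr2:157135067-157135346, minus strand): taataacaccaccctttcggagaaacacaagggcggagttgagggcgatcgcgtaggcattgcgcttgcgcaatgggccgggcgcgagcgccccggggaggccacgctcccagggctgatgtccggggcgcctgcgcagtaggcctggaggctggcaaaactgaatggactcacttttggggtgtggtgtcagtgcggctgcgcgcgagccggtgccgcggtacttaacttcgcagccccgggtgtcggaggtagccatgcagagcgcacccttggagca

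In Isg15, 3 overlapping matches formed 1 unbroken run that began 78 bases before the start. Ifit1 and Ifit3 each held 2 matches on the opposite strand, beginning 104 and 85 bases before the start in Ifit1 and 156 and 122 bases before it in Ifit3. The Ifitm3 matches lay just after the start, at bases 2 and 19, and the single Ddx58 match lay at base 2. The Samhd1 window held no match to the ISRE core. The Ifitm3 match at base 19 overlapped a match to the GAS core (TTC, any 3 bases, GAA) that began at base 13. Samhd1 held a GAS core match that began 235 bases before the start.

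Counting a gene once over all its windows, the ISRE core was found in 18 of the 28 members (64.3%), against 1079 of the 27025 genes in the table (3.99%). Of the 18, 8 had at least 2 matches in 1 window and 13 had one that began within 150 bases before the start. The GAS core, also searched on both strands, was found in 10 of the 28 (35.7%), against 2582 of 27025 genes (9.55%), and 6 members held both. Among members that passed the filter, 15 of 21 genes held the ISRE core, and among those below it 3 of 7. A match is a description of letters and not a binding site. No ISRE core lay in these windows of Samhd1, Trim25, Ifi35, Cmpk2, Isg20, Oasl2, Oasl1, Xaf1, Ifit2 and Ifi44. Dhx58, Zbp1, Usp18, Oas2, Mx1, Mx2, Rtp4, Parp9 and Parp14 were not among the 28.

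**Figure D1:**
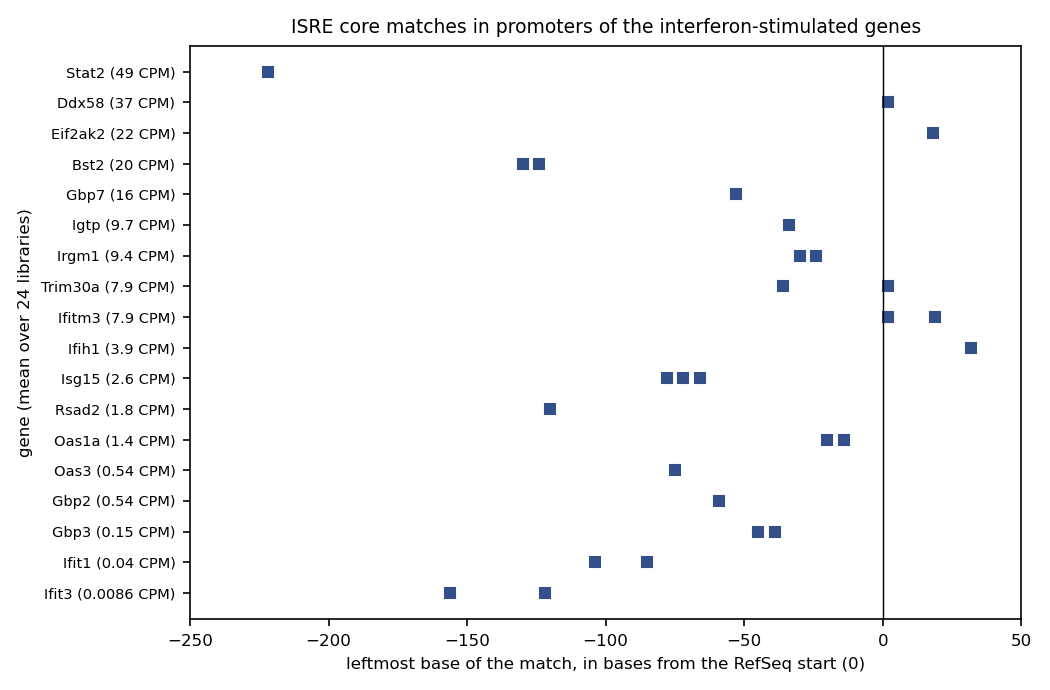
Position of each ISRE core match (square, leftmost base) in the promoter windows of the 18 members that held one, in bases from the RefSeq transcription start at 0, with genes ordered by their mean CPM over 24 libraries. Ifit3 and Ifit1 at the bottom and Stat2 at the top all hold matches, and the 3 squares of Isg15 lie side by side.

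The members spanned a wide range of levels in every group, and differed far more between genes than between groups. Per kilobase of exon, 4 of the 37 averaged over 20 CPM, 15 between 1 and 20 and 18 under 1. The median member stood at 1.48 CPM per kilobase, against 5.50 for the 11876 genes that passed the filter and had a length, of which 18.5% were under 1. Samhd1 was the most abundant at 97.5 CPM per kilobase, higher than 96.1% of those genes. Trim25, a ubiquitin ligase that acts on RIG-I, followed at 40.4, Bst2 (tetherin, which holds budding virus at the membrane) at 22.0 and Ifi35 at 20.8 CPM per kilobase. At the other end Ifit1, Ifit3, Mx2, Oasl1, Rtp4 and Ifi44, textbook genes of an interferon response, were close to 0.

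**Figure D2:**
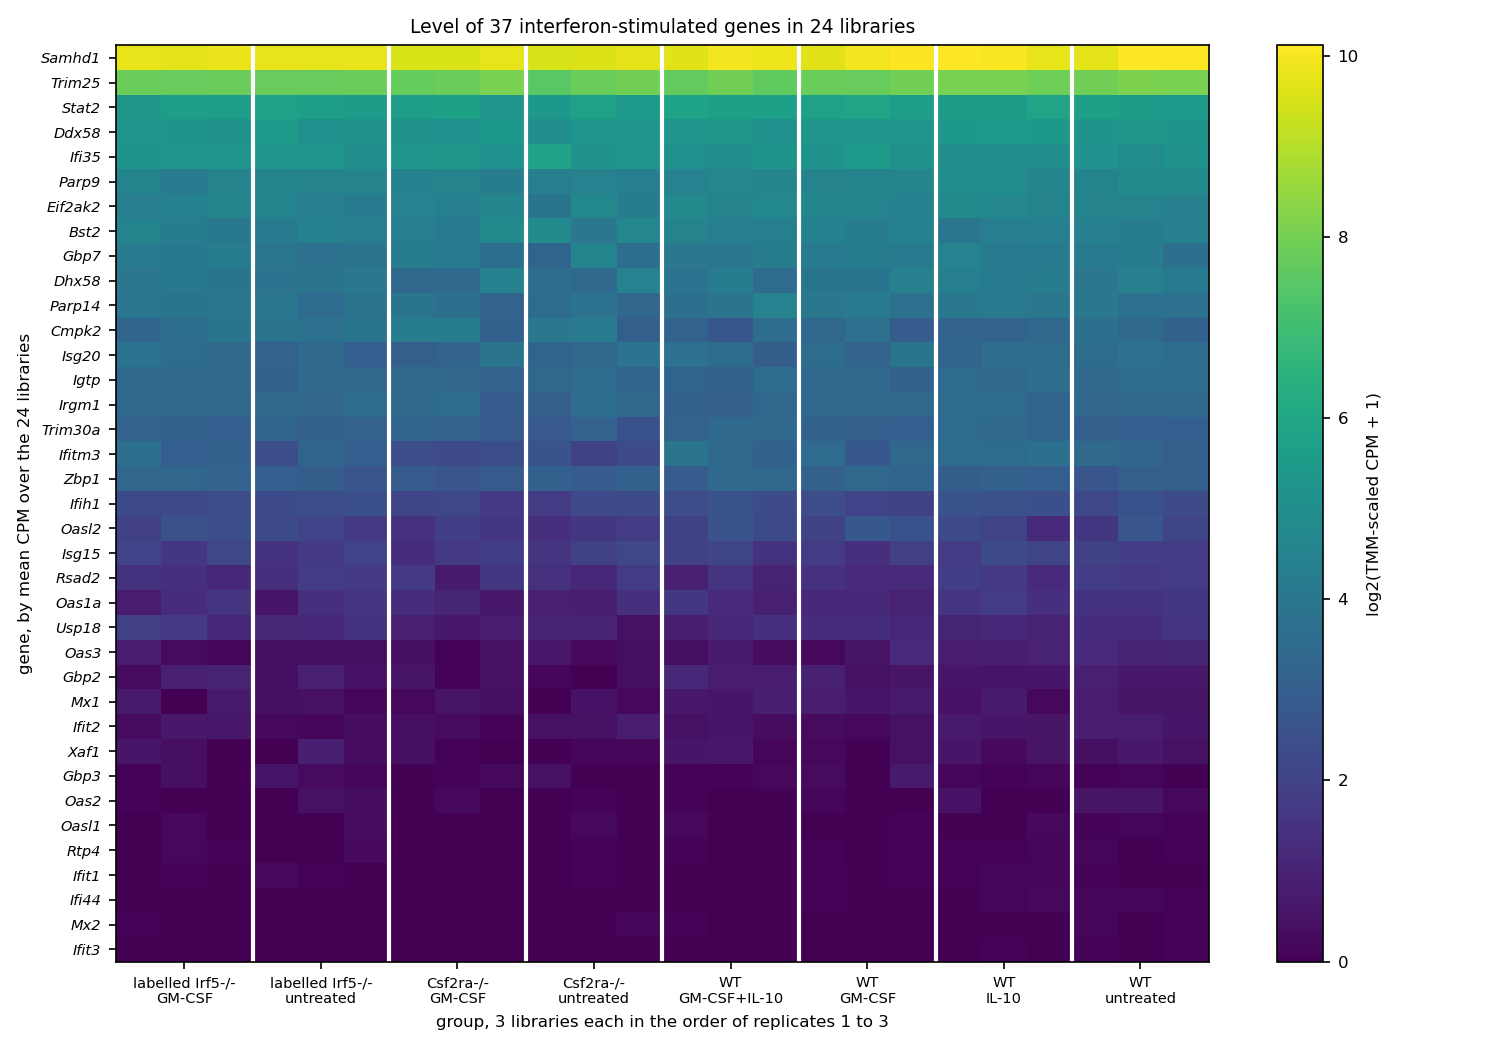
Level of the 37 genes (rows, highest mean at the top) in the 24 libraries (columns, 3 per group, groups separated by white lines), as log2(TMM-scaled CPM + 1). Rows differ far more than columns: Samhd1 stays at 725 to 1105 CPM in every library, while the lowest rows hold single counts.

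Among the sensors, Ddx58 stood at 29.7 to 42.0 CPM over the 24 libraries (5.32 CPM per kilobase), and its 8 group means differed by a ratio of 1.17. Ifih1 (MDA5), which senses long double-stranded RNA, averaged 3.90 CPM, Dhx58 (LGP2), a regulator of both, 15.4 CPM, and Zbp1, a sensor of Z-form nucleic acid, 7.52 CPM. In the ISG15 system Trim25 stood at 183 to 278 CPM, whereas Isg15 itself averaged 2.63 CPM and Usp18, the protease that removes ISG15 and restrains the type I receptor, 1.28 CPM. Even the low members of this group were detected in every library.

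All 3 IFIT genes were below the filter. Ifit2 had 136 counts over the 24 libraries and at least 1 in each, at 0.0739 to 0.775 CPM. Ifit1 had 13 counts spread over 12 libraries, and Ifit3 had 3 counts, 1 of them in an IL-10 library and 2 in untreated wild-type libraries. Ifit3 was thus at 0 in the other 21 libraries, and 3 counts, the limit that a count of 0 allows, are 0.160 to 0.482 CPM in these libraries. That limit covers counting error only. Reads shared with near-identical copies (Ifit3b for Ifit3, Oas1g for Oas1a) may also be lost or split, so these 2 genes are uncertain.

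The OAS enzymes make the messenger that activates RNase L. Oasl2, an OAS-like relative, stood at 1.29 to 5.87 CPM, while Oas1a averaged 1.41 CPM and Oas3 0.541 CPM. Per kilobase these 3 were at 0.511, 0.746 and 0.0765 CPM. Oas2 had 39 counts in 14 libraries, 14 of them in the 3 untreated wild-type libraries. Oasl1, which restrains translation of Irf7, had 18 counts in 10 libraries. Of the MX GTPases, which trap viral nucleocapsids, Mx1 ranged from 0 to 0.786 CPM and Mx2 had 7 counts in 5 libraries. C57BL/6 mice are known to carry a defective Mx1 allele, so its transcript says little of protein.

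Among the other effectors, Eif2ak2 (PKR, which halts translation) averaged 21.8 CPM, Cmpk2 (a mitochondrial nucleotide kinase) 11.3 CPM, Isg20 (an exonuclease) 10.4 CPM, Trim30a 7.92 CPM, Ifitm3 7.88 CPM and Rsad2 (viperin) 1.80 CPM. Below the filter in this group were Xaf1 with 95 counts in 20 libraries, Rtp4 with 16 in 12 and Ifi44 with 10 in 7. All 10 Ifi44 counts fell in wild-type libraries. Stat2, the signal transducer of type I interferon, stood at 37.7 to 58.5 CPM with group means that differed by a ratio of 1.18, beside Parp9 at a mean of 22.7 CPM and Parp14 at 13.8 CPM. Of the guanylate-binding and immunity-related GTPases, which attack pathogen vacuoles, Gbp7 stood at 8.63 to 22.3 CPM. Igtp averaged 9.67 CPM, Irgm1 9.40 CPM and Gbp2 0.538 CPM, and Gbp3 was below the filter with 45 counts in 20 libraries. Parp9 overlaps Dtx3l on the opposite strand and Igtp overlaps Irgm2 on its own strand, so reads of these pairs may be shared.

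For 16 of the 27 tested members the highest of the 8 group means was less than 1.5 times the lowest, and the median ratio was 1.44. The ratio was largest for Gbp2 (6.49), Oas3 (4.40) and Mx1 (3.29), all under 1 CPM. Among the 18 members with a mean of at least 5 CPM it ran from 1.17 to 2.84, with Ifitm3 at the top. The lowest mean was in 1 of the 2 Csf2ra-/- groups for 17 of the 27 members, in 1 of the 2 groups labelled Irf5-/- for 3 and in 1 of the 4 wild-type groups for 7. The highest was in a Csf2ra-/- group for 3, in a group labelled Irf5-/- for 2 and in a wild-type group for 22, of which 11 were the IL-10 group. These counts are given without a share over all genes, so they do not show a trait particular to the members.

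The comparison that the 37 genes were chosen for sets the libraries labelled Irf5-/- against wild type. In untreated cells none of the 27 tested members was called by edgeR's quasi-likelihood test (adjusted p under 0.05), and 0.0337% of all 11885 genes were. At an unadjusted p under 0.05 there were 2, Oas3 and Trim25, while 14.0% of all genes passed that level. DESeq2 and limma-voom also called 0, with 2 each at an unadjusted p under 0.05. The median log2 fold change of the members was -0.22, with 21 of 27 below 0, against -0.00 over all genes. The 95% interval of the log2 fold change lay within 0.5 of 0 for 10 members and within 1 of 0 for 20.

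Samhd1 had 886, 844 and 862 CPM in the untreated libraries labelled Irf5-/-, against 839.7, 1089 and 1105 CPM in untreated wild type. One wild-type library lay below all 3 of the others, so the groups overlap. The log2 fold change was -0.23 ± 0.12 (SE; 95% interval -0.47 to 0.02). Trim25 had 218, 214 and 222 CPM in the untreated libraries labelled Irf5-/- and 244, 278 and 267 CPM in untreated wild type, without overlap. Its log2 fold change was -0.27 ± 0.11 (SE), and edgeR's adjusted p over all genes was 0.309. Here and below, no share of all genes without overlap is given beside such cases, so a lack of overlap describes only the gene named.

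Oas3 was the member with the largest difference. It had 0.320, 0.291 and 0.327 CPM in the untreated libraries labelled Irf5-/-, against 1.31, 1.03 and 1.05 CPM in untreated wild type. The groups do not overlap, the log2 fold change was -1.83 ± 0.64 (SE; 95% interval -3.17 to -0.50), and edgeR's adjusted p was 0.293. With only these 2 groups in the fit, edgeR called Oas3 alone of 25 members tested (adjusted p = 0.033), but the same fit called 562 of 11344 genes (4.95%). With GM-CSF the same gene had 0.723, 0.238 and 0.145 CPM in the libraries labelled Irf5-/- and 0.171, 0.439 and 1.30 CPM in wild type, which overlap.

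Among the other members that lead their groups, Mx1 did not overlap between genotypes and the others did. Ddx58 had 41.8, 32.8 and 35.4 CPM in untreated libraries labelled Irf5-/- and 36.9, 40.1 and 36.6 CPM in untreated wild type (log2 fold change -0.06 ± 0.11, SE). Stat2 had 53.8, 49.1 and 46.9 CPM in the libraries labelled Irf5-/- and 52.1, 45.8 and 42.1 CPM in wild type (log2 fold change 0.09 ± 0.14, SE). Both intervals, -0.28 to 0.17 for Ddx58 and -0.20 to 0.38 for Stat2, lie within 0.5 of 0. Gbp7 had 14.9, 12.8 and 13.8 CPM in the libraries labelled Irf5-/- and 17.6, 18.1 and 12.4 CPM in wild type. Oasl2 had 3.84, 3.05 and 2.29 CPM in the libraries labelled Irf5-/- and 2.09, 5.51 and 3.36 CPM in wild type. Mx1 had 0.320, 0.364 and 0.131 CPM in the libraries labelled Irf5-/- against 0.719, 0.431 and 0.449 CPM in wild type, and its interval of -2.60 to 0.52 leaves a wide range. These Mx1 values rest on 9 counts in the libraries labelled Irf5-/- and 22 in wild type.

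With GM-CSF in both, 0 of the 27 members were called by edgeR, where 0.0337% of all genes were. At an unadjusted p under 0.05 there were 0, where 1.46% of all genes passed. DESeq2 and limma-voom gave 0 and 0. The median log2 fold change was -0.00 with 14 of 27 below 0, and the interval lay within 0.5 of 0 for 13 members and within 1 for 22. Usp18 had the largest positive value: 2.81, 2.22 and 1.23 CPM in the libraries labelled Irf5-/- and 1.43, 1.48 and 1.23 CPM in wild type, a log2 fold change of 0.58 ± 0.34 (SE) with overlapping groups. Samhd1 had 865, 834 and 888 CPM in the libraries labelled Irf5-/- and 806, 973 and 1046 CPM in wild type, which overlap too. Trim25 had 225, 214 and 225 CPM in the libraries labelled Irf5-/- and 230.1, 218 and 251 CPM in wild type, and these overlap as well.

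With GM-CSF, Stat2 had 39.5, 49.2 and 48.8 CPM in the libraries labelled Irf5-/- and 53.7, 58.5 and 49.2 CPM in wild type, a log2 fold change of -0.23 ± 0.14 (SE). Ddx58 had 39.0, 36.2 and 36.0 CPM in the libraries labelled Irf5-/- and 37.3, 38.1 and 37.8 CPM in wild type. The wild-type Ddx58 values lie inside the range of the others. Gbp7 had 17.4, 16.2 and 17.8 CPM in the libraries labelled Irf5-/- and 17.3, 17.8 and 16.5 CPM in wild type, nearly the same range. Oasl2 had 2.73, 4.68 and 4.36 CPM in the libraries labelled Irf5-/- and 3.03, 5.87 and 4.78 CPM in wild type, and Mx1 had 0.643, 0 and 0.654 CPM in the libraries labelled Irf5-/- and 0.743, 0.548 and 0.651 CPM in wild type. Both sets overlap.

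The members below the filter had few counts in these groups. Ifit2 had 7 counts over the 3 untreated libraries labelled Irf5-/- and 27 over untreated wild type, but 19 with GM-CSF in the libraries labelled Irf5-/- and 12 with GM-CSF in wild type. Xaf1 had 15 counts in untreated libraries labelled Irf5-/- and 17 in untreated wild type, and with GM-CSF 10 in the libraries labelled Irf5-/- and 9 in wild type. Oas2 had 9 counts in untreated libraries labelled Irf5-/- and 14 in untreated wild type, and with GM-CSF 1 in the libraries labelled Irf5-/- and 3 in wild type. These genes were not tested, and the counts are not scaled for depth. For Ifit2 and Xaf1 the order of the genotypes changed with treatment, while Oas2 had fewer counts in the libraries labelled Irf5-/- in both. Ifi44 had 0 counts in these libraries in both treatments, against 4 untreated and 2 with GM-CSF in wild type. Oasl1 went the other way, with 4 against 3 untreated and 2 against 1 with GM-CSF. The 4 counts were all in replicate 3.

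Averaged over both treatments, 6 libraries against 6, again 0 of 27 members were called by edgeR, with 0.0926% of all genes called. The labels do not say whether untreated and GM-CSF libraries of a genotype share a source, so the 6 may not be independent. At an unadjusted p under 0.05 there were 4, all with lower values in the libraries labelled Irf5-/-: Oas3 (log2 fold change -1.28), Samhd1 (-0.18), Parp9 (-0.18) and Trim25 (-0.17), at adjusted p-values of 0.468 to 0.504. Across all genes 9.84% passed that level. DESeq2 called 0 with 2 at an unadjusted p under 0.05, and limma-voom called 0 with 4. The interval lay within 1 of 0 for 25 of the 27. The GM-CSF effect in cells labelled Irf5-/- minus that in wild type was called for 0 members (0.0% of all genes), and 0 had an unadjusted p under 0.05 by edgeR, DESeq2 or limma-voom. By edgeR 3.16% of all genes passed that level. Only 16 of the 27 had the same sign in the untreated and the GM-CSF comparison.

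**Figure D3:**
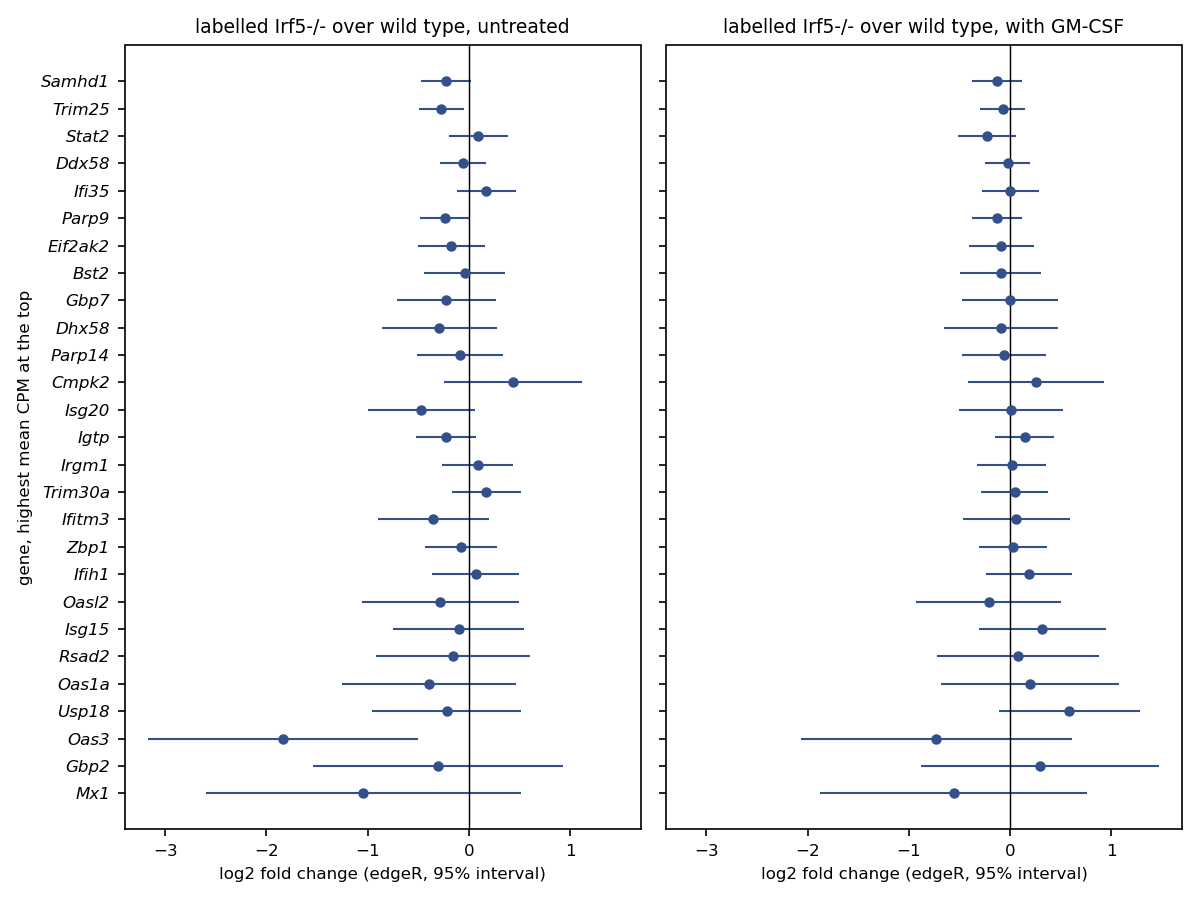
Log2 fold change (point) and 95% interval (line) from edgeR of the 27 tested members, libraries labelled Irf5-/- over wild type, untreated on the left and with GM-CSF on the right, highest mean CPM at the top. The Ddx58 intervals stay within 0.5 of 0 in both panels, those of Oas3, Gbp2 and Mx1 are the widest, and on the left only Oas3 and Trim25 exclude 0.

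Markers of other cells were read beside these values. In untreated cells 0 of 15 monocyte and macrophage markers were called between the libraries labelled Irf5-/- and wild type, 7 had an unadjusted p under 0.05, and their median log2 fold change was -0.61. Their summed level was 2463 to 2791 CPM in the libraries labelled Irf5-/- and 2663 to 2723 CPM in wild type. Of 4 stromal and endothelial markers tested, 0 were called and 3 had an unadjusted p under 0.05, with a median log2 fold change of 2.67 and summed levels of 471 to 494 CPM in the libraries labelled Irf5-/- and 403 to 424 CPM in wild type (Cdh5 and Kdr at 0 in the libraries labelled Irf5-/-). With GM-CSF that median was 3.38 with 3 of 4 at an unadjusted p under 0.05, and averaged it was 3.07 with 4 of 4. Both erythroid markers tested had an unadjusted p under 0.05 in untreated cells (median 1.15), and neither was called. Of all genes 14.0% passed that level untreated, 1.46% with GM-CSF and 9.84% averaged. Whether these cells have a part in the members' values was not tested. In bulk RNA, fewer cells of a type and less RNA per cell cannot be told apart.

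GM-CSF and IL-10 left the members without a call. GM-CSF against untreated cells called 0 of 27 in wild type (0.555% of all genes), 0 in the libraries labelled Irf5-/- (0.353%) and 0 in Csf2ra-/- cells (0.0%). In wild type, GM-CSF in the presence of IL-10 called 0 (0.858%), IL-10 alone called 0 (0.0505%) and IL-10 in the presence of GM-CSF called 0 (0.0505%). At an unadjusted p under 0.05 edgeR had 1 member in each of these comparisons except GM-CSF in Csf2ra-/- cells, which had 0. Of all genes 3.21% to 9.63% passed that level in these comparisons. DESeq2 and limma-voom called 0 in all 6, with at most 2 members at an unadjusted p under 0.05.

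The member with the lowest p for GM-CSF in wild type was Zbp1. It had 9.16, 9.21 and 8.13 CPM with GM-CSF and 7.20, 6.84 and 5.29 CPM untreated in the libraries labelled Irf5-/-, and 7.54, 9.60 and 8.83 CPM with GM-CSF and 5.49, 7.32 and 7.40 CPM untreated in wild type. In both the groups do not overlap, with log2 fold changes of 0.47 ± 0.17 and 0.37 ± 0.16 (SE) and edgeR adjusted p-values of 0.535 and 0.726. In Csf2ra-/- cells it had 6.59, 5.27 and 6.58 CPM with GM-CSF and 7.52, 6.77 and 7.63 CPM untreated.

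For IL-10 it was Trim30a, a ubiquitin ligase that restrains nuclear factor kappa B signalling in mice. Its IL-10 libraries had 10.6, 9.89 and 8.69 CPM, against 7.25, 7.06 and 7.03 CPM in untreated ones, without overlap (log2 fold change 0.45 ± 0.16, SE; edgeR adjusted p = 0.763). With GM-CSF present, libraries given IL-10 had 8.14, 9.89 and 9.91 CPM and those without it 7.77, 7.35 and 7.02 CPM. Both IL-10 groups lay above their controls, and neither difference passed the adjusted threshold.

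Most of the calls among the members were between Csf2ra-/- cells and wild type. Averaged over untreated and GM-CSF libraries, 6 against 6, edgeR called 7 of the 27 lower (25.9%) and 0 higher in Csf2ra-/- cells: Ifitm3, Samhd1, Usp18, Oasl2, Parp9, Oas3 and Gbp2. If untreated and GM-CSF libraries share a source, these 6 are not independent. The adjusted p-values of the averaged comparisons, here and below, may then be too small. This contrast called many genes, 8.93% of all tested genes lower and 8.11% higher, 17.0% in either direction. The members' median log2 fold change was -0.15, with 24 of 27 below 0, against 0.01 over all genes. In GRCm38 Ifitm3 (ENSMUSG00000025492) lies at chr7:141009586-141010770, Samhd1 (ENSMUSG00000027639) at chr2:157097533-157135265 and Oas3 (ENSMUSG00000032661) at chr5:120753098-120777661, all on the minus strand. Usp18 (ENSMUSG00000030107) lies at chr6:121245906-121270917, Oasl2 (ENSMUSG00000029561) at chr5:114896936-114912234, Parp9 (ENSMUSG00000022906) at chr16:35938470-35972605 and Gbp2 (ENSMUSG00000028270) at chr3:142620602-142638008, on the plus strand. These 7 had different roles: a block to viral entry, a nucleotide hydrolase, a feedback protease, 2 OAS family members, a PARP and a GTPase.

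Ifitm3 had 4.27, 3.91 and 4.43 CPM in Csf2ra-/- cells with GM-CSF and 4.93, 2.83 and 4.14 CPM untreated, against 10.5, 5.92 and 9.33 CPM in wild type with GM-CSF and 10.3, 8.78 and 7.33 CPM untreated. All 6 Csf2ra-/- libraries lay below all 6 wild-type libraries. It averaged 4.09 ± 0.706 CPM in Csf2ra-/- cells and 8.69 ± 1.77 CPM in wild type (SD, n = 6 libraries each), a log2 fold change of -1.10 ± 0.19 (SE; edgeR adjusted p = 0.000427). It was called in untreated libraries alone and in GM-CSF libraries alone.

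Usp18 had 0.865, 0.602 and 0.739 CPM in Csf2ra-/- cells with GM-CSF and 0.987, 0.942 and 0.355 CPM untreated, against 1.43, 1.48 and 1.23 CPM in wild type with GM-CSF and 1.50, 1.46 and 1.87 CPM untreated. These groups do not overlap either. It averaged 0.748 ± 0.239 CPM in Csf2ra-/- cells and 1.50 ± 0.208 CPM in wild type, a log2 fold change of -1.01 ± 0.26 (SE; edgeR adjusted p = 0.011).

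Samhd1 had 749, 739 and 858 CPM in Csf2ra-/- cells with GM-CSF and 725, 761 and 832 CPM untreated, where the wild-type values given above began at 806 CPM. The groups overlap in 2 wild-type and 2 Csf2ra-/- libraries. It averaged 777 ± 54.2 CPM in Csf2ra-/- cells and 977 ± 128 CPM in wild type, a log2 fold change of -0.33 ± 0.08 (SE; edgeR adjusted p = 0.00994).

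Parp9, which acts with Dtx3l in interferon signalling, averaged 20.0 ± 1.57 CPM in Csf2ra-/- cells and 24.4 ± 2.62 CPM in wild type (log2 fold change -0.28 ± 0.08, SE; adjusted p = 0.0243). The Csf2ra-/- libraries ran from 17.8 to 22.0 CPM and the wild-type libraries from 21.8 to 27.8 CPM, so the ranges overlap at their ends. Oasl2 had 1.73, 2.63 and 2.07 CPM in Csf2ra-/- cells with GM-CSF and 1.60, 2.12 and 2.42 CPM untreated, against 3.03, 5.87 and 4.78 CPM in wild type with GM-CSF and the untreated wild-type values above. Untreated wild-type replicate 1, at 2.09 CPM, lies within the Csf2ra-/- range. The log2 fold change was -0.94 ± 0.26 (SE; adjusted p = 0.0162), and without untreated wild-type replicate 2 the adjusted p was 0.0751, no longer called.

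The remaining 2 were low. Oas3 had 0.324, 0.0752 and 0.369 CPM in Csf2ra-/- cells with GM-CSF and 0.617, 0.177 and 0.296 CPM untreated, for a log2 fold change of -1.49 ± 0.45 (SE; adjusted p = 0.027) against wild type. Its highest Csf2ra-/- library lies above 2 wild-type libraries. Gbp2 had 0.432, 0.0752 and 0.369 CPM in Csf2ra-/- cells with GM-CSF and 0.123, 0 and 0.296 CPM untreated, against 0.857, 0.384 and 0.434 CPM in wild type with GM-CSF and 0.849, 0.603 and 0.598 CPM untreated. Its highest Csf2ra-/- library lies above the lowest wild-type library, and the log2 fold change was -1.54 ± 0.48 (SE; adjusted p = 0.0306). Leaving out each of the 12 libraries in turn kept Ifitm3, Usp18 and Samhd1 called. The call for Gbp2 was lost in 6 of these fits (highest adjusted p = 0.0948): without Csf2ra-/- untreated replicate 1 or 2 or GM-CSF replicate 2, or wild-type untreated replicate 1 or 2 or GM-CSF replicate 1. That for Parp9 was lost in 5 (highest 0.0779): without Csf2ra-/- untreated replicate 1 or GM-CSF replicate 3, or wild-type untreated replicate 2 or 3 or GM-CSF replicate 3. That for Oas3 was lost in 3 (highest 0.166): without Csf2ra-/- untreated or GM-CSF replicate 2, or wild-type GM-CSF replicate 3. With the other groups left out of the fit, Samhd1, Parp9 and Oas3 were no longer called and Gbp2 no longer passed the filter.

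**Figure D4:**
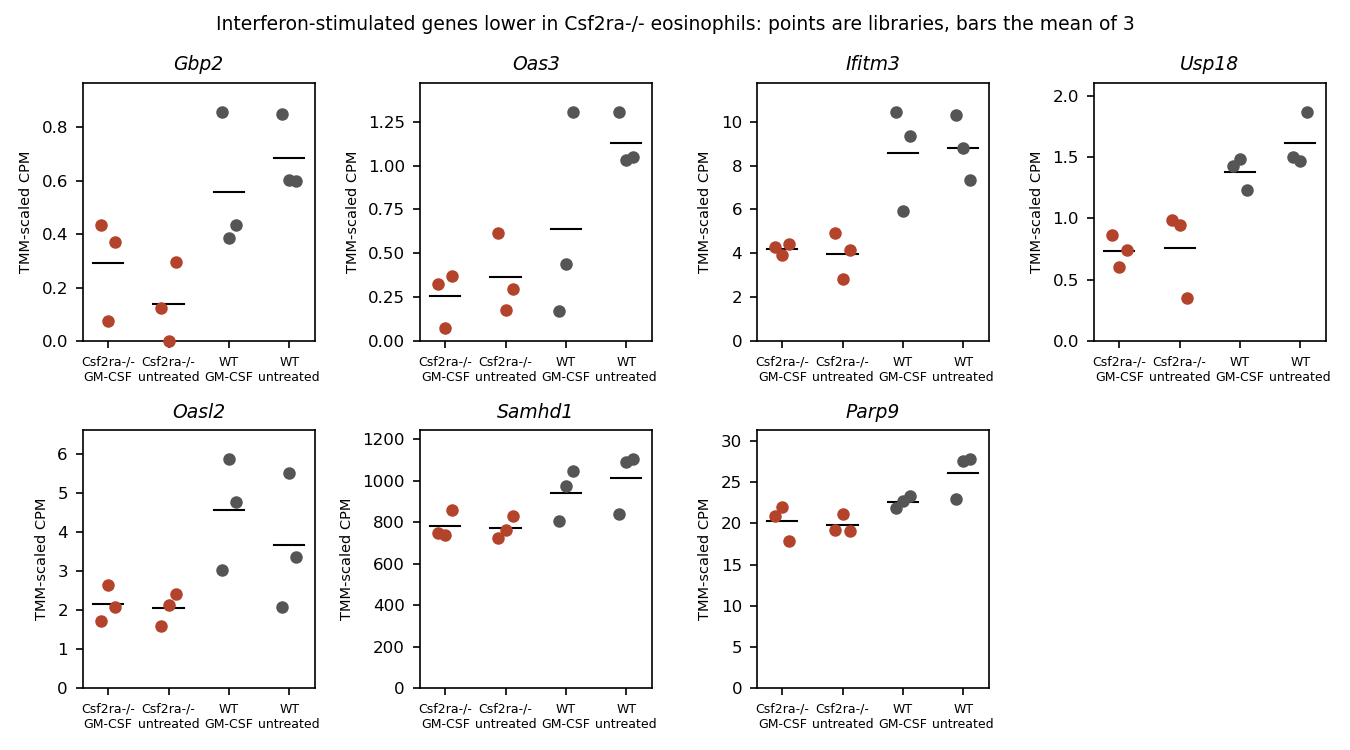
TMM-scaled CPM of the 7 members called lower in Csf2ra-/- cells, with a point per library and a bar at the mean of 3, for Csf2ra-/- cells with GM-CSF and untreated and wild-type cells with GM-CSF and untreated. Points of Ifitm3 and Usp18 do not overlap between genotypes, and those of the other 5 do.

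Treatment by treatment the counts were smaller. In untreated libraries alone 3 of 27 members were called lower (Ifitm3, Samhd1 and Parp9; 5.32% of all genes lower), and in GM-CSF libraries alone 1 (Ifitm3; 2.89%). Some members split the Csf2ra-/- libraries. Dhx58 stood at 20.6 CPM in GM-CSF replicate 3 and 21.6 CPM in untreated replicate 3, against 9.78 to 11.3 CPM in the other 4 Csf2ra-/- libraries. Cmpk2 went the other way, at 7.76 and 7.33 CPM in those 2 libraries against 15.0 to 18.5 CPM in the other 4. Those 4 lay above every untreated or GM-CSF wild-type library (6.66 to 12.9 CPM). Averaged over both treatments Cmpk2 was not called, with an unadjusted p of 0.0423 by edgeR, where 30.9% of all genes were under 0.05. It was called higher in Csf2ra-/- cells when either replicate 3 was left out. The labels do not tie these libraries to a shared culture.

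Several marker lists moved with this result. Of 15 monocyte and macrophage markers 11 were called lower in Csf2ra-/- cells, with summed levels of 2108 to 2784 CPM in Csf2ra-/- cells and 2404 to 2740 CPM in wild type. Of 9 plasmacytoid dendritic markers 4 were lower (10.0 to 16.6 CPM in Csf2ra-/- cells, 22.2 to 29.2 CPM in wild type), of 6 conventional dendritic markers 3 (4.38 to 5.62 CPM in Csf2ra-/- cells, 7.63 to 19.6 CPM in wild type, with Xcr1 at 0 in both), and of 11 neutrophil markers 5 (1161 to 1400 CPM in Csf2ra-/- cells, 1352 to 1618 CPM in wild type). Of 10 eosinophil markers 4 were higher and 1 lower (78458 to 110617 CPM in Csf2ra-/- cells, 71755 to 78399 CPM in wild type), and both erythroid markers tested were higher (58.3 to 121 CPM in Csf2ra-/- cells, 18.3 to 45.2 CPM in wild type, with Hba-a2 at 0). Of 2 T and NK markers tested 1 was higher (118 to 143 CPM in Csf2ra-/- cells, 73.1 to 100.2 CPM in wild type) and of 5 mast cell and basophil markers 1 (351 to 568 CPM in Csf2ra-/- cells, 296 to 389 CPM in wild type), while none of 2 B cell and 4 stromal markers was called. In the libraries compared here the summed Y-linked level was 148 to 185 CPM in Csf2ra-/- cells and 52.5 to 178 CPM in wild type, and with it as a covariate 4 members were called (Ifitm3, Samhd1, Usp18 and Oasl2). Whether the cells behind these markers have a part in the result was not tested.

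Set against Csf2ra-/- cells, which are the same 6 libraries as above, the libraries labelled Irf5-/- were higher for 2 of 27 members over both treatments, where 4.25% of all genes were higher. Ifitm3 averaged 7.81 ± 2.53 CPM in the libraries labelled Irf5-/- and 4.09 ± 0.706 CPM in Csf2ra-/- cells (log2 fold change 0.96 ± 0.20, SE; edgeR adjusted p = 0.00349). Its libraries labelled Irf5-/- had 12.1, 7.06 and 7.63 CPM with GM-CSF and 4.32, 8.65 and 7.12 CPM untreated, and the lowest lies within the Csf2ra-/- range. Usp18 averaged 1.72 ± 0.686 CPM in the libraries labelled Irf5-/- and 0.748 ± 0.239 CPM in Csf2ra-/- cells, without overlap (log2 fold change 1.19 ± 0.27, SE; adjusted p = 0.00739). In untreated libraries alone 0 were called by edgeR (0.53% of all genes higher), with 3 at an unadjusted p under 0.05 (13.3% of all genes). With GM-CSF both were called (2.43% of all genes higher).

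Marker lists moved with this contrast too. Higher in the libraries labelled Irf5-/- were 5 of 15 monocyte and macrophage markers (summed level 2423 to 2791 CPM in the libraries labelled Irf5-/-, 2108 to 2784 CPM in Csf2ra-/- cells), 6 of 11 neutrophil markers (1508 to 1836 CPM in the libraries labelled Irf5-/-, 1161 to 1400 CPM in Csf2ra-/- cells) and 4 of 9 plasmacytoid dendritic markers (16 to 47.6 CPM in the libraries labelled Irf5-/-, 10.0 to 16.6 CPM in Csf2ra-/- cells). So were 1 of 6 conventional dendritic markers (4.16 to 20.6 CPM in the libraries labelled Irf5-/-, 4.38 to 5.62 CPM in Csf2ra-/- cells) and 2 of 4 stromal markers (441 to 541 CPM in the libraries labelled Irf5-/-, 426 to 509 CPM in Csf2ra-/- cells). Lower were 1 of 10 eosinophil, 1 of 2 erythroid and 1 of 2 T and NK markers. Their part in the result was not tested.

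The pathway around the members was read from lists of its ligands, receptors, sensors and inhibitors. The 21 interferon genes listed had 10 counts in all: 9 of Ifnz and 1 of Ifng. The other 19, among them Ifnb1 and every listed Ifna gene, were at 0 in all 24 libraries, which allows up to 0.160 to 0.482 CPM per library. Again that limit covers counting error only, and reads shared between similar Ifna copies may be lost. The receptors and their signalling chain were present. Per kilobase of exon Jak2 averaged 55.2 CPM, Ifngr1 40.1 CPM, Jak1 39.3 CPM, Ifnar2 19.5 CPM, Ifnar1 9.50 CPM and Irf9 5.95 CPM, whereas Irf7, the factor that amplifies interferon production, stood at 1.74 CPM, Irf8 at 0.933 CPM and Ifnlr1, the type III receptor chain, at 0.179 CPM. Among the sensors Tlr3 was nearly absent at 0.0103 CPM per kilobase.

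**Figure D5:**
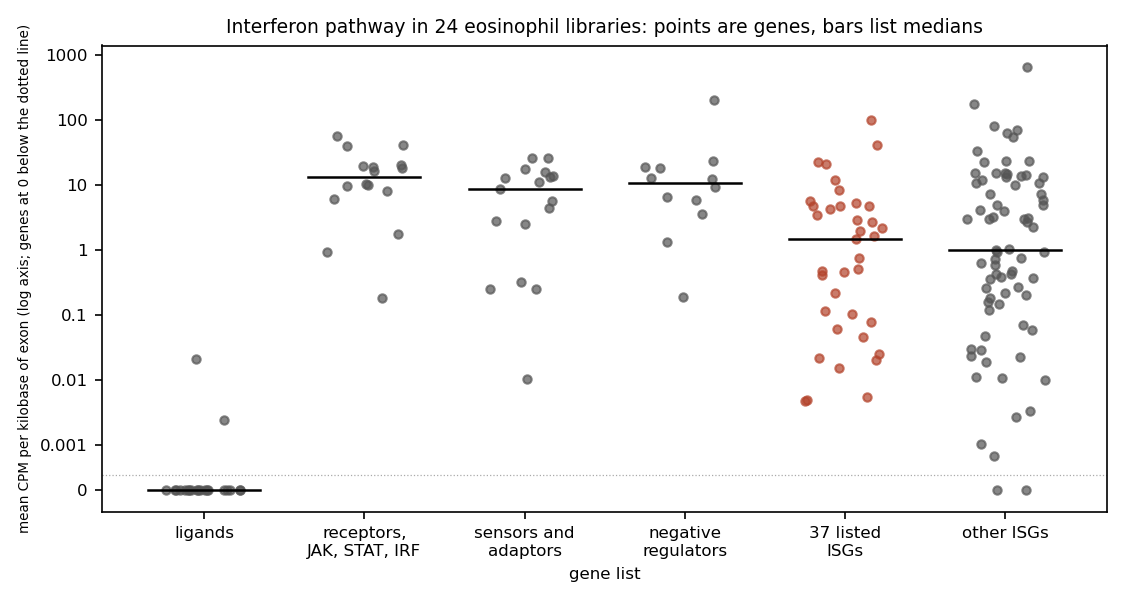
Mean CPM per kilobase of exon over 24 libraries (log axis, genes at 0 below the dotted line) of each gene of 6 lists, with bars at list medians. The interferon ligands lie at or near 0, the receptor, sensor and inhibitor lists have medians of 13.3, 8.64 and 10.6, and the 37 genes reach up to 97.5.

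None of these genes was called between the libraries labelled Irf5-/- and wild type, untreated, with GM-CSF or averaged. That holds for 16 receptors and JAK, STAT and IRF genes, 16 sensors and adaptors and 12 negative regulators tested. At an unadjusted p under 0.05 edgeR had 0 receptor and signalling genes in all 3 comparisons, 6 sensors untreated, 0 with GM-CSF and 3 averaged, and 3, 0 and 2 negative regulators. Of all genes 14.0% passed that level untreated, 1.46% with GM-CSF and 9.84% averaged. In Csf2ra-/- cells against wild type, 5 of the 16 receptor and signalling genes were lower and 0 higher. Of all genes 8.93% were lower and 8.11% higher. Irf8, a myeloid and dendritic cell factor, averaged 3.49 ± 0.886 CPM in Csf2ra-/- cells and 7.95 ± 1.24 CPM in wild type, a log2 fold change of -1.20 ± 0.25 (SE; edgeR adjusted p = 0.00278). Ifnar1 had a log2 fold change of -0.32, Irf2 and Irf1 both -0.26 and Il10rb -0.24. Tlr7, a sensor of single-stranded RNA, was the only sensor called, with 0.568 ± 0.192 CPM in Csf2ra-/- cells and 1.64 ± 0.531 CPM in wild type (log2 fold change -1.43, adjusted p = 0.000104). Of the negative regulators Socs3 (-0.72) and Nlrc5 (-0.79) were lower and Rnaseh2b (0.57) higher.

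A longer list held 75 other interferon-stimulated genes, of which 55 were tested. It gave 0 calls between the libraries labelled Irf5-/- and wild type in untreated, GM-CSF and averaged comparisons. At an unadjusted p under 0.05 edgeR had 12, 1 and 8, where 14.0%, 1.46% and 9.84% of all genes passed. Against Csf2ra-/- cells the libraries labelled Irf5-/- had 6 of the 55 higher and 0 lower. Of all 11885 genes 505 were higher (4.25%) and 196 lower. The 5 largest were Ms4a6d (log2 fold change 2.80), Slfn1 (2.53), Ifi203 (2.27), Slfn9 (1.44) and Ifi207 (0.94). The same genes in Csf2ra-/- cells against wild type had log2 fold changes of -3.42, -2.74, -2.94, -1.37 and -1.48, and both comparisons use the same Csf2ra-/- libraries. Slfn9 had 1.75 to 3.53 CPM in the libraries labelled Irf5-/- and 0.530 to 1.08 CPM in Csf2ra-/- cells, without overlap. Ms4a6d, which macrophages express, had 1.28 to 32.8 CPM in the libraries labelled Irf5-/- and 0.752 to 1.73 CPM in Csf2ra-/- cells, with overlap at the low end.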

How the data were processed

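The authors deposited one file of raw read counts per gene for each of 24 libraries. The labels name a strand-specific mRNA kit, and the submitters' processing notes name STAR, featureCounts and GRCm38.p6; no source used here gives their roles, versions or strand setting. Symbols and exon lengths came from GENCODE M21, and 34 identifiers without a symbol (0.0189% of counts) stayed in the totals. The deposited counts were fitted with edgeR 4.0.16 (R 4.3.3): 1 model of 8 group means, TMM factors (0.939 to 1.03), edgeR's default filter by group (11885 genes kept), robust quasi-likelihood tests with 16 residual degrees of freedom and Benjamini-Hochberg adjustment over all kept genes. The biological coefficient of variation was 14.1%. Standard errors are the fold change over the root of F. DESeq2 1.42.0 and limma 3.58.1 (voom) were alternatives, and the code was tested on simulated counts. Members and lists were chosen with earlier results of these data known. Members called anywhere or leading their role group are given per library, except Parp9, which is given as means and ranges. Members below the filter are given as counts. Other genes are named if targeted, eosinophil markers, pathway genes, or among the 5 largest changes each way in an Irf5 comparison.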

Additional observations from a re-analysis of the deposited data

Results flagged for a closer look

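Zbp1 is listed because its GM-CSF libraries all lay below the untreated ones in Csf2ra-/- cells and all above them in the libraries labelled Irf5-/- and in wild type. It averaged 6.15 CPM with GM-CSF and 7.31 CPM untreated in Csf2ra-/- cells, 8.83 CPM with GM-CSF and 6.44 CPM untreated in the libraries labelled Irf5-/-, and 8.66 CPM with GM-CSF and 6.74 CPM untreated in wild type. The GM-CSF effect in Csf2ra-/- cells minus that in wild type was -0.61 on the log2 scale, and the effect in the libraries labelled Irf5-/- minus that in Csf2ra-/- cells was 0.72. Both differences were tested in the same edgeR model after the values were seen, with unadjusted p-values of 0.0164 and 0.00663 and adjusted p-values over all genes of 0.836 and 0.82, so neither passed. Groups of 3 libraries were not tested for single libraries that stand apart.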

How the results depend on the processing

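Across 4839 recomputed member-level values, 35 lost the call, 9 gained it and 4795 kept their side of the threshold. Most of these values belong to results that were not called as reported and so had no call to lose. The 35 came only from the 7 calls between Csf2ra-/- cells and wild type and the 2 between libraries labelled Irf5-/- and Csf2ra-/- cells. The sign differed in 296 of the 4839 values, none of them called in either fit (lowest unadjusted p = 0.202). The count of 0 members between libraries labelled Irf5-/- and wild type became 1 in untreated cells (Oas3) when the fit held just those libraries, where 562 of 11344 genes (4.95%) were called, and stayed 0 under the other alternatives. The 7 members lower in Csf2ra-/- cells stood beside 8.93% of all genes called lower and 17.0% called in either direction. Brackets below give the share of all genes in either direction, while the members called were lower unless stated. The 7 became 3 with a filter of 5 CPM in 3 libraries, which tests 18 members (17.3%). With only the groups compared they became 3 (9.47%), and with the Y-linked covariate 4 (13%). The count was 6 without a filter (9.68%), 7 with DESeq2 (19.6%) and 7 with limma-voom (16.5%). Leaving out each library gave 4 to 8 (10.8% to 22.6%), with the 4 and the 10.8% without untreated wild-type replicate 2. These counts include 1 member called higher, Cmpk2, without Csf2ra-/- untreated replicate 3 (beside 7 lower) and without Csf2ra-/- GM-CSF replicate 3 (beside 6 lower). Libraries labelled Irf5-/- against Csf2ra-/- cells gave 2 members, where 505 of 11885 genes were higher and 196 lower. They gave 1 with the stricter filter (338 of 9786 genes higher), 1 with only the groups compared (349 of 11581) and 3 with DESeq2 (591 of 11885), all higher. Using a single treatment, chosen after seeing the data, gave 3 untreated and 1 with GM-CSF for Csf2ra-/- against wild type, and 0 untreated and 2 with GM-CSF for labelled Irf5-/- against Csf2ra-/-. The cause was not tested. No paired analysis was run, because the labels give no replicate numbers that groups share. In the libraries labelled Irf5-/-, numbered here by order of deposit, the Y-linked level of replicates 1 to 3 was 178, 12.1 and 39.3 CPM untreated. With GM-CSF it was 163, 13.2 and 44.0 CPM. Whether untreated and GM-CSF libraries share sources was not tested. If they do, differences between sources add to the spread in the GM-CSF tests. Depth limits the 10 members below the filter and those under 1 CPM.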

Other observations

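In Csf2ra-/- cells against wild type, edgeR called 15 of the 55 tested genes of the longer interferon-stimulated list lower and 3 higher, where 8.93% of all genes were lower and 8.11% higher. Beside the genes named above, which were chosen by the Irf5 comparisons, the following were picked after their values were seen. Ms4a4c had a log2 fold change of -2.28, Mndal -1.57, Ube2l6 (a conjugating enzyme for ISG15) -1.41 and Parp12 -1.07. Higher in Csf2ra-/- cells were Ly6e (0.37), Pml (0.36) and Lgals9 (0.30). Ms4a4c had 0.123 to 0.591 CPM in Csf2ra-/- cells and 0.932 to 3.11 CPM in wild type, without overlap, and Mndal 0.150 to 1.23 CPM in Csf2ra-/- cells and 0.932 to 2.32 CPM in wild type, with overlap. In untreated libraries alone 11 were lower and 2 higher, where 632 of all 11885 genes were lower (5.32%) and 656 higher. In GM-CSF libraries alone 5 were lower and 1 higher, where 343 genes were lower (2.89%) and 108 higher. The lower monocyte, macrophage and dendritic marker levels given above belong to the same libraries, and their part in these differences was not tested.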
